A study of Mus musculus with 6 samples.

Results

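The genes described here encode 10 effectors of osteoclast fusion and bone resorption: Dcstamp, Ocstamp, Atp6v0d2, Car2, Clcn7, Ostm1, Acp5, Ctsk, Src and Calcr. They are grouped by what they do in the cell, each was taken from the probe set that carries its symbol alone, and all 10 were among the 22180 genes measured. Expression was profiled in Raw 264.7 cells, an established mouse line of the monocyte and macrophage lineage that can form osteoclasts. The cells were grown in 10% serum, starved, and then kept in medium with 2% serum that held 50 ng/ml IL-33, a cytokine related to IL-1, or PBS. Each group held 3 arrays of this one line, and the labels give neither a treatment time nor a RANKL treatment. The file names kept in the sample descriptions run against the sample titles, with IL in the names of the PBS arrays and P in those of the IL-33 arrays. Groups here follow the titles, "lower" means lower in the arrays titled IL-33, and every sign would turn if the titles were exchanged.

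Osteoclasts are large cells that form when precursors of the macrophage lineage fuse, under the cytokines M-CSF and RANKL. They attach to bone through a ring of actin-rich podosomes, pump protons into the sealed space beneath them to dissolve mineral, and release proteases that cut the exposed collagen. Fusion needs membrane proteins such as DC-STAMP, and acid secretion needs a proton pump, a carbonic anhydrase that supplies protons and a chloride transporter that balances the charge. Many of these genes are induced by the transcription factor NFATc1 together with AP-1, PU.1 and the MITF and TFE family.

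Promoter sequence was read from RefSeq (GRCm38.p6) for 6 of the 10 genes, as the 250 bases before each annotated start, and 4 are shown. Clcn7 and Ostm1 encode partner proteins compared below, and Acp5 and Ctsk are widely used osteoclast markers. Of the several starts of Clcn7 and Acp5, the start shown is that with the lowest coordinate. Capitals mark every match, on either strand, to GAGGAA (PU.1), GGAAA (NFAT), TGANTCA (AP-1), or CACGTG and TCATGTG (MITF and TFE family). GAGGAA and GGAAA can overlap by 4 bases.
Clcn7, chr17:25133141-25133390, plus strand: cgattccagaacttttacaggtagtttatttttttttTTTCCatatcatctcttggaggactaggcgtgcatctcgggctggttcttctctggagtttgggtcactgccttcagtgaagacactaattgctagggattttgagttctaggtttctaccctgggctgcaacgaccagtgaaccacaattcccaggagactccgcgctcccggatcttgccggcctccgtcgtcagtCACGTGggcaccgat
Ostm1, chr10:42678666-42678915, plus strand: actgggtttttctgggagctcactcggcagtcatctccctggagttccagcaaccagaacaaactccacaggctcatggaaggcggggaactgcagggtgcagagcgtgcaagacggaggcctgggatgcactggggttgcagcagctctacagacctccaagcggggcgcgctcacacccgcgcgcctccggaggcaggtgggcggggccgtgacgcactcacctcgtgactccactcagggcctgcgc
Acp5, chr9:22130599-22130848, minus strand: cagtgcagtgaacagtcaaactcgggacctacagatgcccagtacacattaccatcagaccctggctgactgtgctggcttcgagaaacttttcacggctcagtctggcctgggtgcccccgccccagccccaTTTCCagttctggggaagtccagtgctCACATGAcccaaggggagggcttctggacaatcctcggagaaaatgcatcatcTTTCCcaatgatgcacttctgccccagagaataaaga
Ctsk, chr3:95498960-95499209, plus strand: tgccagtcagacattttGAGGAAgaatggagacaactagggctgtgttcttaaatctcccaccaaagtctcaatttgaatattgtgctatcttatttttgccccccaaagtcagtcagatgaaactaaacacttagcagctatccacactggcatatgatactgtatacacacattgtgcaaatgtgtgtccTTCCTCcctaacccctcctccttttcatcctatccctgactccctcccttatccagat

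The Clcn7 window held a CACGTG at 15 to 10 bases before the start, a word found in 6.02% of the 32851 windows of this length in the table. It also held 1 match to GGAAA. The Clcn7 window not shown held a TCATGTG but no CACGTG. The Acp5 window held TCATGTG on the opposite strand, found in 3.25% of windows, and 2 matches to GGAAA, found in 55.6%. The Acp5 windows not shown held no TCATGTG. All these shares are per window, not per gene. The Ctsk window held 2 matches to GAGGAA, which 23.3% of windows hold. The Ostm1 window held none of the 5 words, and none of the 10 windows of the 6 genes held TGANTCA, found in 6.75% of windows. These are letter matches and were not tied to any binding measurement.

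The values are log2 expression from RMA, a normalization that makes the distributions of arrays alike. Array medians lay between 5.31 and 5.36, and as arrays have no count depth, their number sets the precision. Across genes, r was 0.9972 to 0.9980 between arrays of one group and 0.9967 to 0.9971 between the groups. All 8 macrophage markers had group means between 10.75 and 12.88, and their mean over the list was 11.92 to 11.98 on the PBS arrays and 11.964 to 11.996 on the IL-33 arrays. Of these 8, the Fc receptor gene Fcgr1 rose 1.41-fold (adjusted p = 0.0448, limma), a call lost in each of the 6 fits that left out an array, and the others did not pass. Adgre1, a macrophage surface receptor, had non-overlapping groups and was 1.22-fold lower in the IL-33 arrays (adjusted p = 0.114, limma), the direction of the genes described below. Its part in their differences was not tested. Of the 8 markers, 4 had a difference below 0 and 4 above, with a median of -0.0027 (log2). The groups did not overlap for 3 in the lower and 2 in the higher direction, beside 10.1% and 10.3% of all genes. With a trended and robust prior variance 1 macrophage marker was lower and 1 higher, beside 2.12% and 2.39% of all genes. Markers of osteoblasts and stroma, lymphocytes and mast cells had list means of 5.09 to 5.14, 4.26 to 4.39 and 3.88 to 4.004 on the PBS arrays, and of 5.02 to 5.10, 4.29 to 4.31 and 3.83 to 3.92 on the IL-33 arrays. None of the 18 measured markers of these other cells passed the test (limma) or passed with a trended and robust prior variance. At an unadjusted p under 0.05, 1 was lower and none higher, beside 6.74% and 6.42% of all genes. The labels do not say whether replicates were separate cultures, so the p-values cover the spread among these 6 samples alone, which could be technical.

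The design asks what IL-33 changes in these cells. All 10 effector genes had a lower mean in the IL-33 arrays, and 4 of them passed the test across all genes: Atp6v0d2 (2.04-fold lower), Src (1.63-fold), Dcstamp (1.54-fold) and Clcn7 (1.47-fold). The other 6, Ctsk, Acp5, Calcr, Car2, Ocstamp and Ostm1, were 1.36-fold to 1.07-fold lower and did not pass. Passing means an adjusted p under 0.05 (limma, Benjamini-Hochberg over 22180 genes), which 0.316% of all genes did in the lower direction, 0.275% in the higher direction and 0.591% in either. None of the 10 was higher at that threshold or at an unadjusted p under 0.05, which 6.42% of all genes were, and 6 were lower at the unadjusted threshold, against 6.74% of all genes. The median log2 difference of the 10 was -0.38, beside -0.01 over all genes, of which 52.1% had a difference below 0. For 7 of the 10 all IL-33 values lay under all PBS values, as for 10.1% of all genes, and for none the reverse, as for 10.3%. The 10 genes, and the lists of other genes below, were chosen with earlier results of these data known. Their comparison with all genes is therefore no independent test. In bulk RNA such as this, fewer cells of a type and less RNA per cell cannot be told apart.

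**Figure D1:**
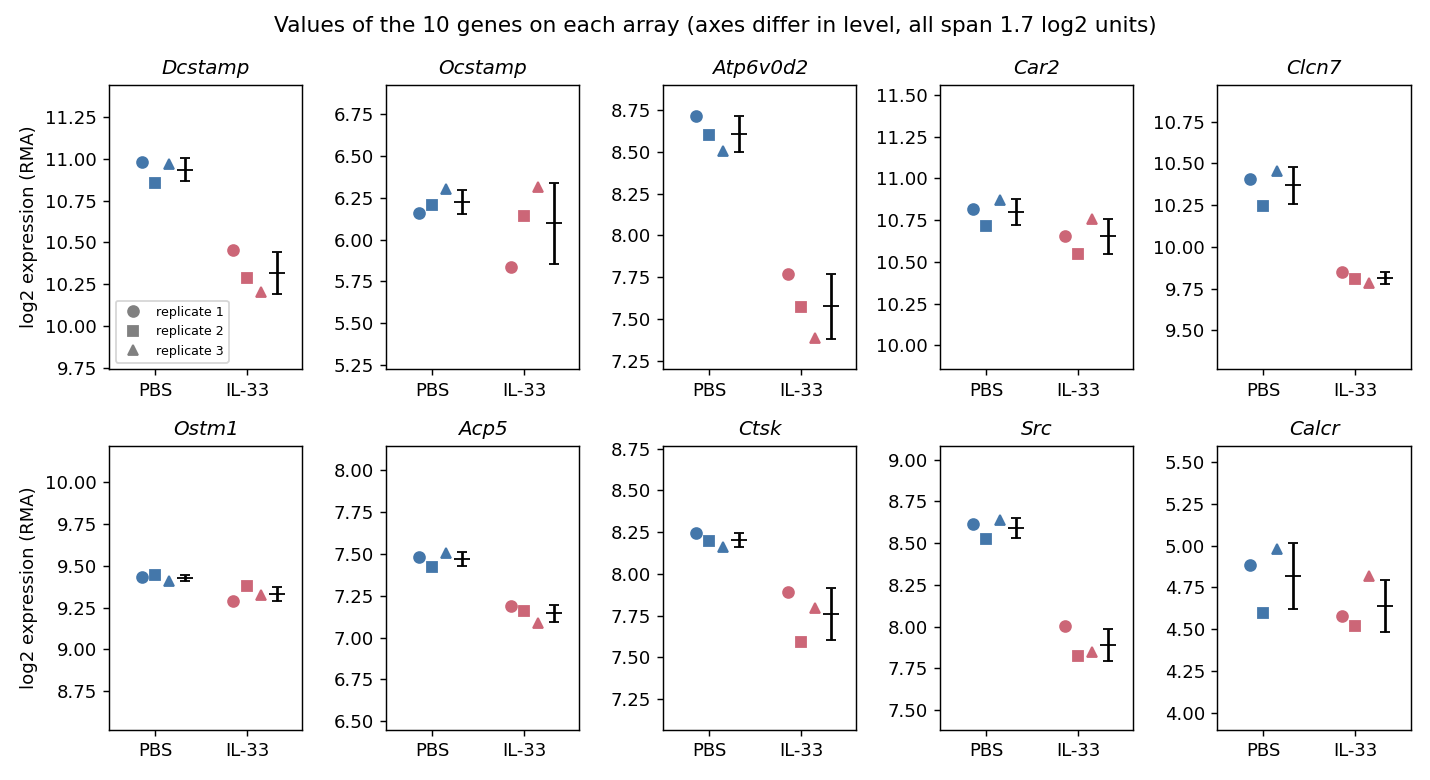
Log2 expression (RMA) of the 10 genes on each array, PBS in blue and IL-33 in red, with the replicate number as the symbol and the group mean with its SD in black. The panels differ in level but share one span; the groups lie apart for Dcstamp, Atp6v0d2, Clcn7, Acp5, Ctsk, Src and, narrowly, Ostm1, and overlap for Ocstamp, Car2 and Calcr.

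Among the fusion genes, Dcstamp, which encodes the membrane protein DC-STAMP that precursors need in order to fuse, read 10.98, 10.86 and 10.97 (log2) on PBS replicates 1 to 3 and 10.45, 10.29 and 10.20 on IL-33 replicates 1 to 3. The groups did not overlap, and the gap between them, 0.41, was wider than the range within either group. Its log2 difference was -0.62 ± 0.08 (SE, n = 3 a group), with an adjusted p of 0.0281 (limma). Ocstamp encodes OC-STAMP, a related multipass membrane protein with a role in fusion, and read 6.16, 6.21 and 6.30 on the PBS arrays and 5.83, 6.14 and 6.32 on the IL-33 arrays. Its groups overlapped, with IL-33 replicate 1 the lowest and IL-33 replicate 3 the highest of all 6 values. Its log2 difference was -0.13, with a 95% interval from -0.41 to 0.16 and an adjusted p of 0.720 (limma). The difference of Ocstamp was 0.0045 without IL-33 replicate 1 and -0.24 without IL-33 replicate 3.

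From the PBS to the IL-33 arrays, the log2 value of Dcstamp minus that of Ocstamp on the same array changed by -0.49 ± 0.22 (SE, n = 3 a group). The change was -0.33 without IL-33 replicate 3 and -0.69 without IL-33 replicate 1. An exact two-sided permutation test gave p = 0.10, the smallest p that 3 arrays against 3 allow, and 0.10 after adjustment over the 3 gene pairs tested this way.

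Atp6v0d2 encodes the d2 subunit of the vacuolar proton pump, an isoform enriched in osteoclasts and also needed for fusion. It read 8.72, 8.60 and 8.50 (log2) on the PBS arrays and 7.77, 7.57 and 7.39 on the IL-33 arrays. The gap of 0.73 between the groups was the widest of the 10 genes. Its log2 difference was the largest of the 10, -1.03 ± 0.11 (SE, n = 3 a group), with an adjusted p of 0.0160 (limma). The gene of the widespread d1 subunit, Atp6v0d1, had a mean of 11.97 ± 0.02 in PBS and 11.82 ± 0.02 in IL-33 (SD, n = 3 each). Its log2 difference of -0.16 did not pass in the main fit (adjusted p = 0.216, limma), although its groups did not overlap. With the trended and robust prior variance Atp6v0d1 passed as lower (adjusted p = 0.0041, limma), as did 2.12% of all genes. It passed in none of the 6 fits without an array, so d1 is not shown to be unchanged. Within arrays the d2 value minus the d1 value changed by -0.87 ± 0.13 (SE, n = 3 a group), again at the smallest possible exact permutation p of 0.10 (0.10 adjusted over the 3 pairs).

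Of the other acid secretion genes, Clcn7 encodes the chloride and proton exchanger ClC-7 of lysosomes and of the resorbing membrane. It read 10.40, 10.24 and 10.46 (log2) on the PBS arrays and 9.85, 9.81 and 9.78 on the IL-33 arrays, where the SD was 0.03. The groups lay 0.39 apart, and the log2 difference was -0.55 ± 0.07 (SE, n = 3 a group) with an adjusted p of 0.0263 (limma). Ostm1, the partner that ClC-7 needs for its stability, read 9.43, 9.45 and 9.41 on the PBS arrays and 9.29, 9.38 and 9.33 on the IL-33 arrays. The groups of Ostm1 were separated by 0.03 only, and its log2 difference was -0.10, with a 95% interval from -0.21 to 0.02 and an adjusted p of 0.456 (limma). A further probe set of Ostm1 had a log2 difference of 0.04 ± 0.11 (SE), with overlapping groups, and the mean of both probe sets differed by -0.03.

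Within arrays the Clcn7 value minus the Ostm1 value changed by -0.46 ± 0.08 (SE, n = 3 a group). The exact permutation p was 0.10, the smallest possible, and 0.10 adjusted over the 3 pairs, so none of the 3 pairs is shown to differ. Car2 encodes carbonic anhydrase II, which supplies the protons, and read 10.81, 10.71 and 10.87 on the PBS arrays and 10.65, 10.55 and 10.76 on the IL-33 arrays. The groups of Car2 overlapped through PBS replicate 2 and IL-33 replicate 3, and its log2 difference was -0.15, with a 95% interval from -0.32 to 0.02 and an adjusted p of 0.449 (limma). It was -0.09 without IL-33 replicate 2.

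**Figure D2:**
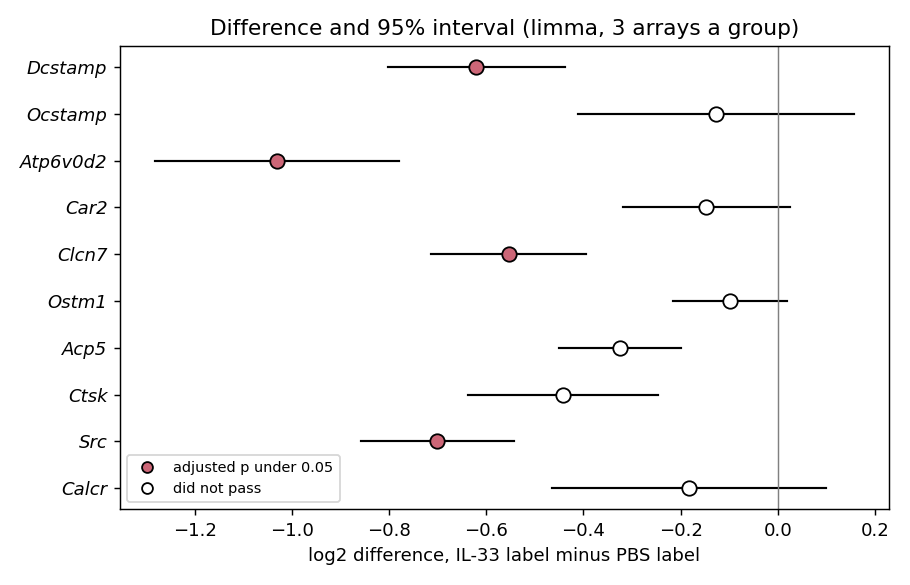
Log2 difference of each gene, IL-33 arrays minus PBS arrays, with its 95% interval from limma; filled points passed at an adjusted p under 0.05. The points run from -1.03 for Atp6v0d2 to -0.10 for Ostm1, and the intervals of Ocstamp, Car2, Ostm1 and Calcr include 0.

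The gene pair that acts on matrix did not pass, although neither gene overlapped between the groups. Ctsk, which encodes the collagen-cutting protease cathepsin K, read 8.24, 8.20 and 8.16 (log2) on the PBS arrays and 7.89, 7.59 and 7.80 on the IL-33 arrays. Its log2 difference was -0.44 ± 0.08 (SE), with a 95% interval from -0.64 to -0.25 and an adjusted p of 0.0864 (limma). Acp5, the tartrate-resistant acid phosphatase used to stain osteoclasts, read 7.48, 7.42 and 7.51 on the PBS arrays and 7.19, 7.16 and 7.09 on the IL-33 arrays. Its log2 difference was -0.32 ± 0.05 (SE), with a 95% interval from -0.45 to -0.20 and an adjusted p of 0.0603 (limma). These intervals take each gene alone, without adjustment for the number of genes. With a prior variance trended on intensity and robust to outliers, both passed, with adjusted p of 0.00510 for Ctsk and 0.0131 for Acp5, in a fit that called 2.12% of all genes lower and 2.39% higher.

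Src, the tyrosine kinase that osteoclasts need to build their podosomes and ruffled border, read 8.61, 8.52 and 8.64 (log2) on the PBS arrays and 8.001, 7.83 and 7.85 on the IL-33 arrays. The groups of Src lay 0.52 apart. Its log2 difference was -0.70 ± 0.07 (SE, n = 3 a group), and its adjusted p of 0.0133 was the smallest of the 10 (limma). Calcr, the receptor through which calcitonin halts resorption, read 4.88, 4.60 and 4.98 on the PBS arrays and 4.58, 4.52 and 4.82 on the IL-33 arrays. All 6 of its values lay under the array medians, the groups overlapped, and without detection calls nothing can be said of whether the transcript was present. The log2 difference of Calcr was -0.18, with a 95% interval from -0.46 to 0.10 and an adjusted p of 0.580 (limma). It was -0.29 without PBS replicate 2 and -0.10 without PBS replicate 3.

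Array by array, all 10 genes were below their own mean over the 6 arrays on IL-33 replicates 1 and 2, and 7 were on IL-33 replicate 3. On IL-33 replicate 3, Ocstamp, Car2 and Calcr were above their means, while Atp6v0d2, Dcstamp, Clcn7 and Acp5 had their lowest value of all arrays. On PBS replicates 1 and 3 none of the 10 was below its mean, and on PBS replicate 2 Car2 and Calcr were. The median deviation from the gene's mean was 0.22, 0.13 and 0.22 (log2) on PBS replicates 1 to 3 and -0.16, -0.25 and -0.20 on IL-33 replicates 1 to 3.

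**Figure D3:**
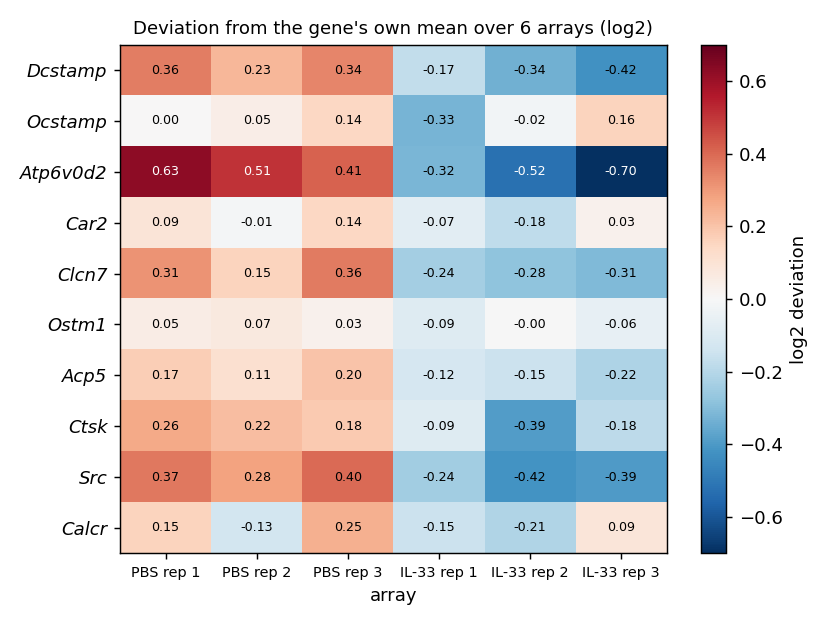
Deviation of each gene from its own mean over the 6 arrays (log2), with genes as rows and arrays as columns. Values above the mean are red and values below it blue; Atp6v0d2 spans 0.63 to -0.70, and Ocstamp, Car2 and Calcr are above their means on IL-33 replicate 3.

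The 4 calls depended on which arrays were kept. None of the 10 genes passed without PBS replicate 1, PBS replicate 3, IL-33 replicate 2 or IL-33 replicate 3, while Clcn7 and Src passed without PBS replicate 2, and Dcstamp, Atp6v0d2 and Src without IL-33 replicate 1. Over these 6 fits the adjusted p lay between 0.0203 and 0.0889 for Atp6v0d2, 0.0203 and 0.0811 for Src, 0.0279 and 0.146 for Dcstamp, and 0.0394 and 0.148 for Clcn7 (limma), and the calls over all genes fell to between 15 and 83. The log2 differences of these 4 genes moved less, from -1.13 to -0.94, -0.76 to -0.67, -0.69 to -0.56 and -0.62 to -0.51 in the same order. In a new fit of all 41345 probe sets, with p adjusted over all of them, none of the 10 passed, and 17 probe sets did.

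Of 76 other osteoclast genes, in 5 lists, 74 were measured. Of these 3 fell, none rose and 71 did not pass, where 0.316% of all genes passed lower and 0.275% higher. Their median log2 difference was -0.08, with 56 below 0, and 17 were lower and 2 higher at an unadjusted p under 0.05, beside 6.74% and 6.42% of all genes. With the trended and robust prior variance 15 were lower and 2 higher, beside 2.12% and 2.39% of all genes.

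Of 11 other fusion genes 1 fell, Tm4sf19, a tetraspan membrane protein of osteoclasts, from 10.94 ± 0.05 to 10.35 ± 0.16 (log2, SD, n = 3 each). It was 1.51-fold lower (adjusted p = 0.0408, limma) and passed in 1 of the 6 fits that leave out an array, that without IL-33 replicate 1. The median of the fusion list was -0.07. At an unadjusted p under 0.05, 1 of its genes was lower and 1 higher, beside 6.74% and 6.42% of all genes. With the trended and robust prior variance 1 was lower and 1 higher, beside 2.12% and 2.39%. Of 8 other matrix-degrading enzymes 1 fell, the gelatinase Mmp9, 1.71-fold, from 10.03 ± 0.03 to 9.26 ± 0.09 (log2, SD, n = 3 each) with an adjusted p of 0.00685 (limma). It was lost without PBS replicate 1 and without PBS replicate 3, where its adjusted p was at most 0.0540, and the median of its list was -0.0011. In that list 1 gene was lower and none higher at the unadjusted threshold. With the trended and robust prior variance 2 were lower and none higher, against the same shares of all genes.

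None of 19 measured genes of the proton pump and acid secretion passed (limma), with 7 lower and none higher at an unadjusted p under 0.05, beside 6.74% and 6.42% of all genes. With the trended and robust prior variance 7 were lower and none higher, beside 2.12% and 2.39%. Their median log2 difference was -0.13, with 17 below 0 and a range from -0.27 to 0.06. The end of that range was Tcirg1, the a3 subunit of the osteoclast proton pump, at -0.27 ± 0.06 (SE) with an adjusted p of 0.118 (limma). The differences of Atp6v0d2 and Clcn7 lay outside this range. Of contrasts with this list only that of Atp6v0d2 with Atp6v0d1 was tested, where the exact permutation p could not go below 0.10. Clcn7 was not tested against any gene of the list.

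None of 17 podosome and sealing zone genes passed (limma), with 5 lower and none higher at an unadjusted p under 0.05, beside 6.74% and 6.42% of all genes. With the trended and robust prior variance 3 were lower and none higher, beside 2.12% and 2.39%. The smallest p among them belonged to Ptk2b, the kinase PYK2 that works with Src, whose log2 difference was -0.33 ± 0.06 (SE, adjusted p = 0.0609, limma). The median of the podosome list was -0.09. Of 19 measured receptors and transcription factors that act upstream 1 fell, Syk, a kinase of immune receptor signalling. It was 1.39-fold lower (adjusted p = 0.0335, limma) and was lost in each of the 6 fits without an array. In the upstream list 3 were lower and 1 higher at an unadjusted p under 0.05, beside 6.74% and 6.42% of all genes. With the trended and robust prior variance 2 were lower and 1 higher, beside 2.12% and 2.39%. Nfatc1, the main transcription factor of osteoclast formation, read 9.18, 9.10 and 9.02 (log2) on the PBS arrays and 9.03, 9.08 and 9.15 on the IL-33 arrays. The groups of Nfatc1 overlapped, with a log2 difference of -0.01, a 95% interval from -0.16 to 0.13 and an adjusted p of 0.950 (limma).

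**Figure D4:**
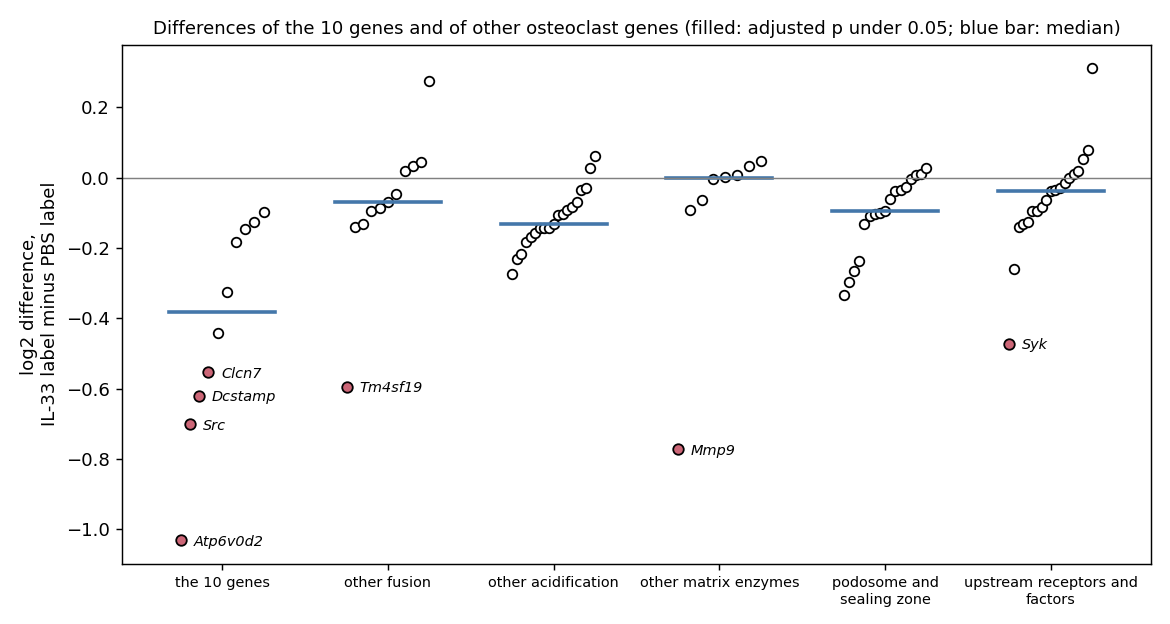
Log2 differences, IL-33 arrays minus PBS arrays, of the 10 effector genes and of 5 lists of other osteoclast genes; each point is a gene, filled points passed at an adjusted p under 0.05 and blue bars are medians. The medians are -0.38 for the 10 genes and -0.07, -0.13, -0.0011, -0.09 and -0.04 for the lists from left to right.

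The profiles most like that of Atp6v0d2 were sought among all genes outside the 10, as the smallest root mean square distance between log2 profiles centred on their means over the 6 arrays. They belonged to Serpinb9b, an inhibitor of serine proteases, Csta3, of the cystatin A family, and Mustn1, a small nuclear protein, at distances of 0.07, 0.08 and 0.10. Serpinb9b was 2.17-fold lower, Csta3 2.00-fold and Mustn1 1.86-fold, with adjusted p of 0.00388, 0.0351 and 0.0147 (limma). Serpinb9b passed in each of the 6 fits without an array, Mustn1 in 2 and Csta3 in 1. Serpinb9b had 2 probe sets, of which that with the highest mean is given. These genes were chosen for likeness to Atp6v0d2 on the same arrays, so their differences and p-values follow from that choice and are no further evidence.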

How the data were processed

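RNA of 6 samples was amplified and biotin-labelled for whole-transcript arrays, per the labels' protocols. The authors deposited 1 log2 value per probe set and array, made with RMA per the submitters' processing notes; no version or setting is given in the sources used here. RMA hides a change shared by most genes and compresses differences near the ends of the scale.

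Of 41345 probe sets, 23521 carried exactly 1 symbol in the platform annotation. Each of 22180 genes was represented by its probe set with the highest mean over the 6 arrays; of the 10 genes described, Ostm1 alone had a further one. The values were fitted as deposited with limma 3.58.1 in R 4.3.3 (lmFit, eBayes, group as the one coefficient, no filter). P-values were adjusted by Benjamini-Hochberg, and genes passed under 0.05. The fit was tested on simulated data. No order of levels between genes was drawn. Figures used matplotlib 3.10.9.

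The genes and lists were chosen with earlier results of these data known. Named were the 10 genes, of each other list up to 3 genes that passed or else the one with the smallest p, Atp6v0d1, Tcirg1 and Nfatc1, and the 3 profiles nearest to the gene with the largest difference. Some listed genes are not analysed here. Alternatives were a filter on dim genes, quantile normalization again, scaling to the 75th percentile, averaged probe sets and a block for the replicate number. Further ones were a prior variance both trended and robust, array weights, a new fit and adjustment over every probe set, and fits without each array.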

Additional observations from a re-analysis of the deposited data

How the results depend on the processing

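The number of the 10 genes called lower was 4, and it was 1 with the replicate number as a block. It was 0 in a new fit of all probe sets, with p adjusted over them, and 0 to 3 without an array. In the other 6 settings between 4 and 6 passed, with 6 under the filter on dim genes and 6 under the trended and robust prior variance. Of all genes tested in these fits, 3.24% and 2.12% were called lower in that order, beside 0.316% in the main setting. The 131 calls over all genes became 760 with the filter on dim genes (mean under the median of all genes), which left 11090 genes. They became 1000 with the trended and robust prior variance and 21 with the replicate block. The fit of all probe sets called 14 genes (17 probe sets in all), and fits without an array called 15 to 83. The 3 other osteoclast genes called lower became 11, 15, 1 and 1 in the same settings and 0 to 2 without an array. Against none called higher in the main setting, 2 were with the filter on dim genes, 2 with the trended and robust prior variance, 1 after further quantile normalization and 1 with array weights. Only Ocstamp changed sign among the 10 genes, to 0.0045 without IL-33 replicate 1, and its differences without an array ran from -0.24 to that value.

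Both groups carry replicate numbers 1 to 3. Deviations of same-numbered arrays from their group means correlated at 0.08, 0.09 and 0.02, 4 of 6 arrays correlated best with their own number, and the numbers were not taken as pairs. With the replicate block the gene still called was Atp6v0d2, with an adjusted p of 0.0277, while Src, Dcstamp and Clcn7 had 0.0705, 0.106 and 0.115 (limma).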

Other observations

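Some other osteoclast genes had a difference above 0, and they are named here after their values were seen. Irf8, a transcription factor that represses osteoclast formation, had a log2 mean of 10.48 ± 0.03 in PBS and 10.79 ± 0.03 in IL-33 (SD, n = 3 each), and Cd47, the ligand of the fusion protein SIRP alpha, had 10.42 ± 0.04 and 10.69 ± 0.02 (SD, n = 3 each). Neither gene overlapped between the groups, and neither passed in the main fit. Irf8 differed by 0.31 (log2, adjusted p = 0.0551, limma) and Cd47 by 0.28 (log2, adjusted p = 0.0764, limma). With the trended and robust prior variance 1 gene of the fusion list and 1 of the upstream list were higher, beside 2.39% of all genes. Oscar, a costimulatory receptor of osteoclast precursors, differed by -0.26 (log2, adjusted p = 0.0866, limma), and Tnfrsf11a, the receptor RANK, by 0.08 (log2, adjusted p = 0.639, limma).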
